A study of Mus musculus with 2 samples.

Results

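A set of 9 transcription factor genes known for patterning the dorsal telencephalon, or pallium, was followed in RNA from laser-cut pieces of the mouse brain at embryonic day 16.5. They are Emx1, Emx2, Nr2f1, Nr2f2, Otx1, Lhx2, Lhx9, Dmrta2 and Dmrt3, 9 of the 24411 genes in the count files, and were taken by symbol. The series holds 2 libraries made by laser capture microdissection (LCM, in which an area of a stained section is cut out under the microscope), 1 from the subventricular zone (SVZ) and 1 from the cortex. Both came from fresh-frozen brain with no treatment given. The labels name no strain, sex or number of embryos. The study made the LCM libraries for comparison with its own method of tagging RNA in chosen areas by light, whose libraries are not analysed here. Each LCM library is called a piece below.

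In the developing forebrain, signals from the midline hem, the anterior pole and the lateral edge set up gradients of these factors in dividing radial glia. Emx1 and Emx2 are homeodomain factors of the dorsal pallium, Emx2 being strongest in caudal and medial cortex. Lhx2 is the LIM homeodomain factor that gives the early neuroepithelium its cortical identity, and Lhx9 is its closest relative. Nr2f1 and Nr2f2, also called COUP-TFI and COUP-TFII, are orphan nuclear receptors that set caudal and ventral area identity. Otx1 is an orthodenticle homeodomain factor of progenitors and later of deep-layer neurons. Dmrta2 and Dmrt3 carry a DM domain and act in caudomedial progenitors.

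Each of the 7 factors that averaged at least 1 CPM (reads of a gene scaled to a sum of 1e+06 gene-assigned reads) was higher in the SVZ piece than in the cortex piece, as were 54.9% of the 12738 genes above that level, called the tested genes below although no significance test was possible. Dmrta2 passed that level through the SVZ piece alone, so its direction is no support for this count. The differences varied widely in size. Emx2 and Dmrta2 were 27.5-fold and 15.5-fold higher in the SVZ piece, Lhx2 and Nr2f1 3.53-fold and 2.96-fold, and Nr2f2, Otx1 and Emx1 between 1.5-fold and 1.78-fold. Lhx9 and Dmrt3 were almost unread, with at most 31 reads in a library.

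With 1 library per area there is no replicate check of any difference. All intervals below are exact at 95% and cover counting error of the reads only. Reads copied by PCR without molecular identifiers are not independent molecules, so the intervals understate the counting error of molecules. The SVZ piece held 51435667 gene-assigned reads and the cortex piece 22050693, so that 1 read was worth 0.0194 and 0.0454 CPM. The pieces also differed in their cells. All 8 radial glia markers were at least 4-fold higher in the SVZ piece (median log2 ratio 4.09), against 10.2% of the tested genes. Among them Pax6 passed 1 CPM through its SVZ level alone, so its place in these values is no support for them. The 6 neuron markers were higher in the cortex piece (median log2 ratio -1.92). All 6 had an interval on the cortex side, against 38.6% of the tested genes. The part of these cell differences in the ratios of the 9 factors was not tested. Choroid plexus transcripts came with the SVZ piece, where the 5 markers summed to 249 CPM, nearly all Ttr, against 2.09 CPM in the cortex piece. In pieces of bulk tissue, fewer cells of a type and less RNA per cell cannot be told apart.

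Several of these genes come in closely related pairs, and STAR, the aligner used, leaves a read that maps to several places out of the gene counts. The coding sequences were therefore compared first. The stretches below are 90 coding bases around the longest run that each pair shares, in capitals, from GENCODE M21 transcripts on GRCm38. They are shown because they are where reads of the paired genes are hardest to separate. The Emx stretches lie in the homeobox, at chr6:85194125-85194214 (plus strand) and chr19:59461749-59461838 (plus strand).
Emx1: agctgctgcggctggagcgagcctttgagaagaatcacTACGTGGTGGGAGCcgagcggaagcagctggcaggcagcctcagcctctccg
Emx2: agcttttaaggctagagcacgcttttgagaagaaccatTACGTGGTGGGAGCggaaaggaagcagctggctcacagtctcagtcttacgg
The Nr2f stretches encode part of the zinc finger DNA-binding domain, at chr13:78198268-78198357 and chr7:70360036-70360125, both on the minus strand.
Nr2f1: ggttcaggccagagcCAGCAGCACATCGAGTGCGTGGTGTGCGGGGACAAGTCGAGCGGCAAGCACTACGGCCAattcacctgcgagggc
Nr2f2: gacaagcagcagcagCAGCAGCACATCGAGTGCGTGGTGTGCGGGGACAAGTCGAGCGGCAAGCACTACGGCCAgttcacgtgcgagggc
The Lhx stretches encode part of a LIM domain, at chr2:38354561-38354650 (plus strand) and chr1:138838497-138838586 (minus strand).
Lhx2: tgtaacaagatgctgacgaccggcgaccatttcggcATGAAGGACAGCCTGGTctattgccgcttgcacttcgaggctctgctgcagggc
Lhx9: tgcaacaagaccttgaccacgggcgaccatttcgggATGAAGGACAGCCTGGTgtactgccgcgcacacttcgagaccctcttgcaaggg
The DM domain stretches lie at chr4:109980069-109980158 and chr19:25610885-25610974, both on the plus strand.
Dmrta2: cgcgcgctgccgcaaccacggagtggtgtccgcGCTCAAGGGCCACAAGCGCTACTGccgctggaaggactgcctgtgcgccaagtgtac
Dmrt3: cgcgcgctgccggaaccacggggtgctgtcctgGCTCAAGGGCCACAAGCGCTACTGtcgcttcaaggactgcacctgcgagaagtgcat

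The longest shared coding run was 59 bases, between Nr2f1 and Nr2f2, whose stretches had 85.6% of bases in common. It was 24 bases for Dmrta2 and Dmrt3, 17 for Lhx2 and Lhx9 and 14 for Emx1 and Emx2. Over all 36 pairs of the 9 genes, 0 shared a coding stretch of 75 bases, the length of a read. Reads trimmed below the shared length, and the parts outside the coding sequence, were not compared.

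The Emx pair was examined first, because the genes are close relatives that differed most. Emx1 (GRCm38 chromosome 6, 85187438 to 85204462, plus strand) had 4271 reads in the SVZ piece and 1217 in the cortex piece, or 83.0 and 55.2 CPM. Its log2 ratio of SVZ to cortex CPM was 0.59 (interval 0.50 to 0.68). Emx1 was therefore well read in both pieces, with a modest excess in the SVZ piece. Emx2 (chromosome 19, 59458372 to 59465357, plus strand) had 2498 and 39 reads, or 48.6 and 1.77 CPM. The log2 ratio was 4.78 (4.32 to 5.27), and 2.54% of the tested genes had a higher one. Emx2 was thus close to the bottom of the tested genes in the cortex piece, where 10.5% had a lower CPM, while Emx1 was above 69.2% of them.

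Of the reads of both Emx genes, Emx2 held 36.9% (35.8% to 38.1%) in the SVZ piece and 3.11% (2.22% to 4.22%) in the cortex piece. The odds ratio of Emx2 to Emx1 between the libraries was 18.2, with an exact interval of 13.2 to 25.9. Per length, in CPM per kb of exon (RPKM), Emx1 exceeded Emx2 by 2.35-fold in the SVZ piece and by 42.9-fold in the cortex piece. The size of these folds depends on the length used. By longest transcript Emx1 and Emx2 were at 53.2 and 16.7 RPKM in the SVZ piece. In the cortex piece they were at 35.4 and 0.607 RPKM. The split between the areas differed within this pair beyond the counting error of the reads. Emx2os, a noncoding gene on the other strand of Emx2, had 18 reads in the SVZ piece and 0 in the cortex piece, for which up to 3 reads cannot be told from none. With 3 reads put in place of 0 the SVZ excess was 2.57-fold, and the interval of the log2 ratio began at 0.91. In GENCODE M21 Emx2os shares 264 exon bases with Emx2, and without strand its reads cannot be told apart from reads of Emx2 there. The stranded columns held 0 further reads for either gene.

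**Figure D1:**
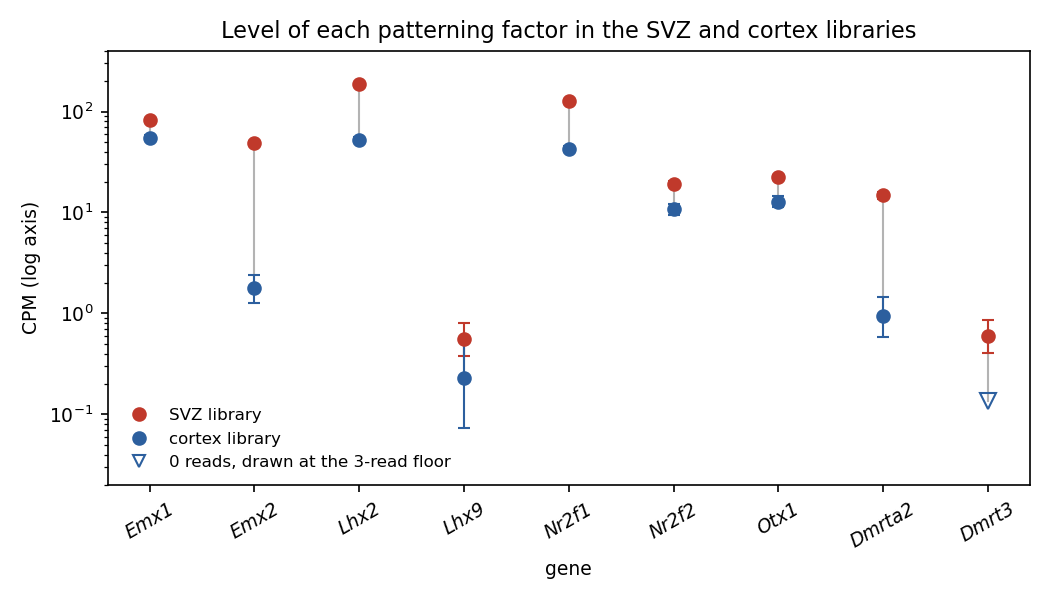
Level of each of the 9 factors, in CPM on a log axis, in the SVZ piece (red) and the cortex piece (blue), with exact 95% Poisson intervals of the counts. Emx2 lies at 48.6 and 1.77 CPM and Dmrta2 at 14.7 and 0.952 CPM, far apart, whereas Emx1 lies at 83.0 and 55.2 CPM. The open triangle is Dmrt3, with 0 cortex reads, drawn at the floor of 0.136 CPM.

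The LIM homeodomain genes were far apart in level. Lhx2 (chromosome 2, 38339281 to 38369733, plus strand) had the most reads of the 9 factors in the SVZ piece and came second to Emx1 in the cortex piece. Its counts were 9564 and 1162 reads, or 186 and 52.7 CPM. The log2 ratio was 1.82 (1.73 to 1.91). Lhx9 (chromosome 1, 138825186 to 138848577, minus strand) had 29 and 5 reads, or 0.564 and 0.227 CPM. The log2 ratio of Lhx9 was 1.31 with an interval of -0.07 to 3.04, so that a difference was not detectable at this depth. Lhx2 held 99.7% of the reads of the pair in the SVZ piece and 99.6% in the cortex piece. The odds ratio of Lhx2 to Lhx9 between the libraries was 1.42 (0.428 to 3.72), an interval that includes equal splits.

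For the nuclear receptors, Nr2f1 led in both pieces. Nr2f1 (chromosome 13, 78188973 to 78199757, minus strand) had 6472 reads in the SVZ piece and 937 in the cortex piece, or 126 and 42.5 CPM, a log2 ratio of 1.57 (1.47 to 1.67). Nr2f2 (chromosome 7, 70351944 to 70366735, minus strand) had 986 and 237 reads, or 19.2 and 10.7 CPM, a log2 ratio of 0.83 (0.63 to 1.05). Both were higher in the SVZ piece, Nr2f1 by more. Nr2f1 made up 86.8% (86.0% to 87.5%) of their reads in the SVZ piece and 79.8% (77.4% to 82.1%) in the cortex piece, an odds ratio of 1.66 (1.41 to 1.95). Per length Nr2f1 was 11.1-fold above Nr2f2 in the SVZ piece and 6.70-fold in the cortex piece. The size of these folds depends on the length used. By longest transcript Nr2f1 and Nr2f2 were at 39.2 and 4.54 RPKM in the SVZ piece. In the cortex piece they were at 13.3 and 2.55 RPKM.

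Nr2f2 is also known from venous endothelium and from interneurons of the caudal ganglionic eminence. Markers of endothelium and of interneurons in general were read in both pieces. The interneuron list was not chosen for that eminence, so its values do not describe those interneurons. The 6 interneuron markers summed to 99.8 CPM in the SVZ piece and 468 CPM in the cortex piece, mostly Npy in the latter. Of the 5 tested, Gad1, Gad2 and Maf were higher in the SVZ piece (log2 ratios 0.38 to 0.64), and Sst and Npy in the cortex piece (-1.48 and -4.73). The 5 venous and lymphatic endothelial markers summed to 27.4 and 18.2 CPM, and moved apart. Nrp2, Ephb4 and Flt4 were higher in the SVZ piece (log2 ratios 4.32, 2.47 and 1.42) and Aplnr in the cortex piece (-0.97), with a median of 1.94 over these 4. Of all tested genes 54.9% were higher in the SVZ piece, with a median of 0.11. Nrp2 passed the minimum through its SVZ level alone, with 0.454 CPM in the cortex piece. Its place among these 4 and in their median is no support for them. Lyve1 had 0 reads in either library. The 6 general blood vessel markers summed to 68.3 and 58.4 CPM. The part of these cells in the Nr2f2 difference was not tested.

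Both receptors have a noncoding partner on the opposite strand. A830082K12Rik, which runs away from Nr2f1 on chromosome 13 (78198017 to 78279391, plus strand), had 2277 reads in the SVZ piece and 445 in the cortex piece, a log2 ratio of 1.13 (0.99 to 1.28). It was higher in the SVZ piece, like Nr2f1, and its interval lay below that of Nr2f1. B130024G19Rik, opposite Nr2f2 (chromosome 7, 70364910 to 70489972), had 41 and 20 reads, its log2 ratio being -0.19 (-0.99 to 0.66), a difference that was not detectable. In GENCODE M21 it shares 643 exon bases with Nr2f2, where reads of the genes cannot be told apart without strand. The stranded columns held 0 further reads for B130024G19Rik or Nr2f2, and the annotation counted may differ there. In GENCODE M21 the antisense transcript of Nr2f1 covers 103 coding bases of the receptor, at chr13:78198120-78198222, in the second zinc finger. They are given here 5′ to 3′ on the Nr2f1 strand, because a read inside them cannot be given to either gene without strand.
Nr2f1 coding bases covered by A830082K12Rik: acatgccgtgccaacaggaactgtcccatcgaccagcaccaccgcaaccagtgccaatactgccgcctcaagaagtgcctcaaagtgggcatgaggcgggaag
The columns that count each strand apart held 134 more Nr2f1 reads in the SVZ piece and 16 more in the cortex piece than the unstranded column, and the same numbers for A830082K12Rik. The kit used keeps no strand, and reads from the overlap cannot be told apart.

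Otx1 (chromosome 11, 21994764 to 22002897, minus strand) had 1147 reads in the SVZ piece and 283 in the cortex piece, or 22.3 and 12.8 CPM. Its log2 ratio was 0.80 (0.61 to 0.99), almost that of Nr2f2. Its relative Otx2, a factor of the choroid plexus and of more posterior brain, had 40 and 0 reads. With 3 reads put in place of 0 this was 5.72-fold more in the SVZ piece, and the interval of the log2 ratio began at 2.15. The choroid plexus marker Ttr moved the same way, with 12363 and 16 reads. Otx1 was the more highly read of the Otx genes in both pieces.

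The DM domain factors were read mostly in the SVZ piece. Dmrta2 (chromosome 4, 109978053 to 109983687, plus strand), also known as Dmrt5, had 758 reads there and 21 in the cortex piece, or 14.7 and 0.952 CPM. Its log2 ratio was 3.95 (3.33 to 4.65), and 4.15% of the tested genes had a higher one. Dmrt3 (chromosome 19, 25610301 to 25623921, plus strand) had 31 and 0 reads. Against the 3 reads that a count of 0 allows, or 0.136 CPM, the SVZ level of Dmrt3 was 4.43-fold that of the cortex piece. The exact interval of the ratio began at 3.39-fold. With so few Dmrt3 reads the odds ratio of Dmrta2 to Dmrt3 had an interval from 0 to 4.97, and their splits could not be distinguished. Dmrta1, a relative of Dmrta2, had 578 reads in the SVZ piece and 0 in the cortex piece. With 3 reads put in place of 0 this was 82.6-fold more, and the interval of the log2 ratio began at 6.07. Dmrt2 went the other way, with 40 and 195 reads, at a log2 ratio of -3.51 (-4.04 to -3.01).

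**Figure D2:**
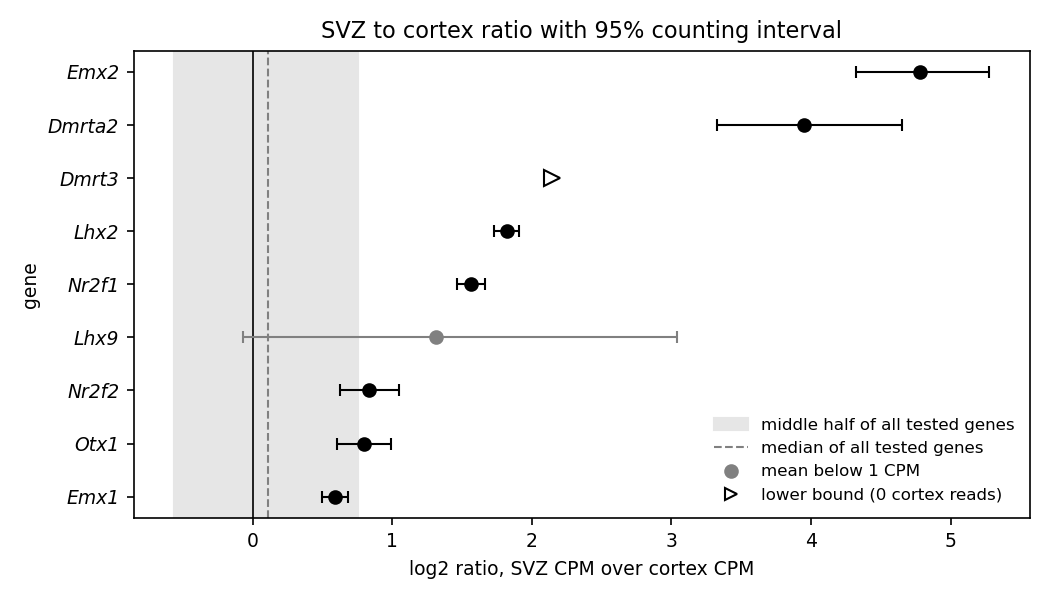
Log2 ratio of SVZ to cortex CPM for each factor with its exact 95% counting interval. The grey band is the range between the quartiles of the 12738 tested genes (-0.56 to 0.76) and the dashed line their median (0.11). Emx2 and Dmrta2 lie furthest right at 4.78 and 3.95, Emx1 lies inside the band at 0.59, Lhx9 spans 0, and the triangle of Dmrt3 is a lower bound.

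Taken in the order of their ratios, Emx2 and Dmrta2 had overlapping intervals, as had Nr2f2 and Otx1, and Otx1 and Emx1. Lhx2 and Nr2f1 did not overlap each other or the factors on either side that passed 1 CPM. The median log2 ratio of the 7 factors was 1.57, and that of all tested genes was 0.11. The counting interval lay above equal CPM for 7 of 7, against 48.2% of all tested genes, and below it for 0, against 38.6%. A ratio of at least 2-fold towards the SVZ was found for 4 (Emx2, Dmrta2, Lhx2 and Nr2f1), against 20% of all tested genes, and a ratio of at least 4-fold for 2 (Emx2 and Dmrta2), against 10.2%. Towards the cortex the numbers were 0 at 2-fold and 0 at 4-fold, where 15.6% and 7.01% of all tested genes passed. Dmrta2 passed the minimum of 1 CPM through its SVZ level alone, its cortex level being 0.952 CPM. Its place in these counts and in the median is therefore no support for them. With a minimum of 10 CPM, which leaves Dmrta2 out, the median was 1.20.

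Levels were then compared between the factors per length of exon. In the SVZ piece the order was Lhx2 (42.3 RPKM), Emx1 (38.02), Nr2f1 (24.7), Emx2 (16.2), Dmrta2 (5.04), Otx1 (4.11), Nr2f2 (2.22), Dmrt3 (0.247) and Lhx9 (0.0594). In the cortex piece Emx1 came first at 25.3 RPKM, followed by Lhx2 (12.0), Nr2f1 (8.34), Otx1 (2.37), Nr2f2 (1.25), Emx2 (0.589), Dmrta2 (0.326) and Lhx9 (0.0239). Lhx2 and Emx1 thus changed places, and Emx2 and Dmrta2 dropped behind Otx1 and Nr2f2. Dmrt3 had no reads there. Counting intervals of neighbouring levels overlapped in the cortex piece between Emx2 and Dmrta2 and between Lhx9 and Dmrt3, and between no neighbours in the SVZ piece. With the length of the longest transcript in place of all exons, Nr2f2 rose above Otx1 in both libraries, and no other place changed.

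**Figure D3:**
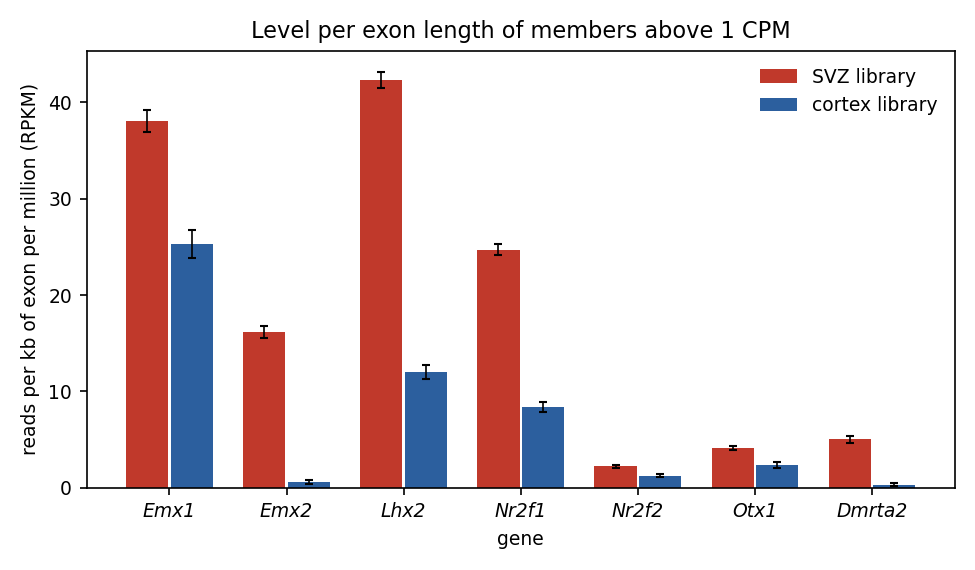
Level per exon length, in RPKM, of the 7 factors with a mean of at least 1 CPM. Bars start at 0 and carry exact 95% Poisson intervals of the counts. Lhx2 is highest in the SVZ piece (42.3) and Emx1 in the cortex piece (25.3), and the cortex bars of Emx2 (0.589) and Dmrta2 (0.326) barely leave the axis.

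Related genes were described by the same measures, as lists with a mean of at least 1 CPM per gene. Among 22 paralogues, 6 passed the minimum, 3 higher in each library, with a median log2 ratio of -0.08. Of all tested genes 54.9% were higher in the SVZ piece. Nr2e1, or Tlx, the nuclear receptor of neural stem cells, had 6849 and 4 reads, its log2 ratio being 9.52 (8.16 to 11.40), far above its relatives Nr2f1 and Nr2f2. On the cortex side of this list stood Dmrt2, then Lhx6, an interneuron factor (log2 ratio -0.29, -0.42 to -0.16). Nr2e1 and Dmrta1 passed the minimum through their SVZ level alone, and Dmrt2 through its cortex level alone. Their directions are no support for the count or the median of this list. Nr2f6, the remaining relative of the COUP-TF genes, had 223 and 95 reads, its log2 ratio being 0.01 (-0.34 to 0.37). Of the paralogues, 12 had 0 reads in both libraries, among them Lhx1, Lhx5 and Vax2.

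Of 15 cofactors tested, 10 had an interval on the cortex side, against 38.6% of all tested genes, and 2 on the SVZ side, against 48.2%. At least 2-fold differences were found for 5 towards the cortex (15.6% of all tested genes) and 0 towards the SVZ (20%). The median log2 ratio was -0.90, and that of all tested genes 0.11. Ldb1, the adaptor that LIM homeodomain factors need, had 16.6 CPM in either library (log2 ratio 0.00, interval -0.18 to 0.18). Its relative Ldb2 had 673 and 3139 reads, a log2 ratio of -3.44 (-3.57 to -3.32), and Zfpm2, a partner of Nr2f2 known as Fog2, had a log2 ratio of -3.27 (-3.46 to -3.09). Bcl11b, which was first named Ctip2 as a COUP-TF interacting protein and marks deep-layer neurons, was also higher in the cortex piece (-2.26, -2.31 to -2.21). Lmo1, a LIM-only protein that binds the same adaptors, was furthest towards the SVZ, at 0.98 (0.91 to 1.05).

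Of the 20 signalling centre ligands, 8 passed the minimum and 6 of these were higher in the SVZ piece, against 54.9% of all tested genes. The median log2 ratio of the 8 was 0.78. Fgf7 and Bmp7 had log2 ratios of 2.83 (1.81 to 4.07) and 2.07 (1.44 to 2.78). Both passed the minimum through their SVZ level alone, with 0.363 and 0.998 CPM in the cortex piece. Their place in this count and median is therefore no support for either. Nrg3 and Wnt7b were higher in the cortex piece, at -4.33 (-4.70 to -3.97) and -1.97 (-2.08 to -1.85). For 5 ligands no read was found. Wnt3a, Wnt8b and Bmp2 of the hem and dorsal midline, Fgf8 of the anterior pole and Shh of the ventral midline each had 0 reads in both libraries, which allows up to 0.0583 CPM in the SVZ piece and 0.136 CPM in the cortex piece.

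Other pallial transcription factors had a median further towards the SVZ piece. Of 23 tested, 19 were higher in the SVZ piece, against 54.9% of all tested genes, and 16 at least 4-fold, against 10.2%. The median log2 ratio was 3.68. The list is not separate from others used here. Sox2, Pax6, Hes1 and Hes5 are also radial glia markers, and Eomes and Neurog2 are also intermediate progenitor markers. Nr2e1 is also among the paralogues, and Tcf7l2 is also in the thalamus and prethalamus list. Pax6, Gli3, Nr2e1, Eomes and Neurog1 passed the minimum through their SVZ level alone, with less than 1 CPM in the cortex piece. All of these are past 4-fold, so their place in these counts and in the median is no support for them. Eomes, of intermediate progenitors, stood highest with 11659 and 2 reads (log2 ratio 11.29, 9.43 to 14.33), followed by Nr2e1. Gli3, the Hedgehog effector that keeps the pallium dorsal, had 14407 and 11 reads (log2 ratio 9.13, 8.29 to 10.14). Tbr1 and Bhlhe22, of postmitotic neurons, were higher in the cortex piece, at -2.21 (-2.28 to -2.14) and -2.01 (-2.09 to -1.93).

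The ventral telencephalon factors served as the nearest contrast. Of 10 tested, 9 were higher in the SVZ piece, against 54.9% of all tested genes, and 2 at least 4-fold, against 10.2%. The median log2 ratio was 0.90. Gsx2 and Dlx6 passed the minimum through their SVZ level alone, so their direction is no support for these counts or the median. Gsx2, of ventral progenitors, led with 4.19 (3.43 to 5.07), and Lhx6 was the gene higher in the cortex piece. Nkx2-1, of the medial ganglionic eminence, and Lhx8 had 0 reads in either library.

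**Figure D4:**
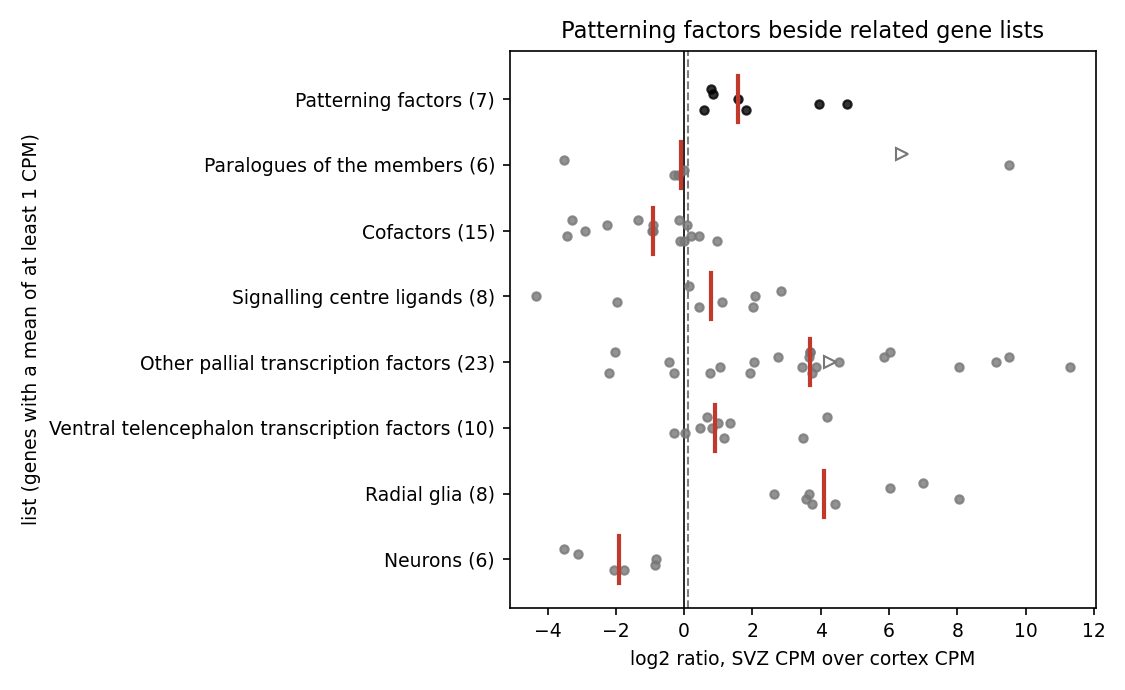
Log2 ratio of SVZ to cortex CPM for each gene with a mean of at least 1 CPM, by list, with the number of genes in brackets. Red bars are list medians and triangles are lower bounds for genes with 0 cortex reads. The 7 patterning factors (black, median 1.57) all lie right of 0, below the other pallial factors (3.68) and the radial glia markers (4.09) in median, and the cofactors lie mostly left of 0.

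Among 53 list genes that are neither members nor cell type markers, the nearest in ratio was recorded for each factor, and is given here for 6 of them. Emx2 (4.78) was nearest to Zbtb20 (4.54), a zinc finger factor of hippocampal and glial progenitors, and Dmrta2 (3.95) to Sox9 (3.87), a factor of radial glia. Lhx2 (1.82) was nearest to Etv1 (1.92). Nr2f2 and Otx1 were both nearest to Dlx5 (0.82), and Emx1 (0.59) to Ebf1 (0.68). With 2 libraries a pattern is a single ratio, so this likeness is no more than a similar number.

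Sequence before the start sites was read for 8 of the 9 factors (10 start sites) from the RefSeq promoter table on GRCm38.p6. The 250 bases before 3 of these starts hold no exon of a protein-coding gene, and they are printed for that reason. Those of Dmrta2 and Nr2f2 overlap exons of the noncoding Dmrta2os and B130024G19Rik. The ratio was steep for Dmrta2, middle for Lhx2 and shallow for Nr2f2, which played no part in the choice. Capitals mark 6 motifs searched on both strands, the homeodomain core TAATTA, the nuclear receptor site AGGTCA, the TCF/LEF core CTTTGA, the TATA box TATAAA, the CCAAT box and the GC box GGGCGG. The windows are chr4:109977775-109978024 (plus strand), chr2:38339031-38339280 (plus strand) and chr7:70366747-70366996 (minus strand).
Dmrta2 upstream: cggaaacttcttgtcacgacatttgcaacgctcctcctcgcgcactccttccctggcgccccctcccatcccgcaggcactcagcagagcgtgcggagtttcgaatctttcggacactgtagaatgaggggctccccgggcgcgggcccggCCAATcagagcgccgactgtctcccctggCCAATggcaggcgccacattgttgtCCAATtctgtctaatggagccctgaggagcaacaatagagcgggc
Lhx2 upstream: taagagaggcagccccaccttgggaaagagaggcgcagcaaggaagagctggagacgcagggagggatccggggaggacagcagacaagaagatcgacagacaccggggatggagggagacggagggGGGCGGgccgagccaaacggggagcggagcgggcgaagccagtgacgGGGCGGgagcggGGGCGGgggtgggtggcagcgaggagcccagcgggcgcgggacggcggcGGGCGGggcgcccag
Nr2f2 upstream: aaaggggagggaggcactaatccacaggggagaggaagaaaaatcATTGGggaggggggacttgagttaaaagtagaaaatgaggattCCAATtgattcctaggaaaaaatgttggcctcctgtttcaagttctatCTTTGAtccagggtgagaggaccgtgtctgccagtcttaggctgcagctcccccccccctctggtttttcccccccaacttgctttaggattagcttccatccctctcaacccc

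The homeodomain core, the nuclear receptor site and the TATA box were in 0 of the 10 windows, against 4.84%, 14.0% and 12.4% of 32851 windows of the same length. A CCAAT box was in 5 of 10 (33.8% of all windows), a GC box in 4 (32.7%) and the TCF/LEF core in 1, that of Nr2f2 (13.8%). Windows were rich in G and C, 8 of 10 lying above the median of 52.4% over all windows, with 72.8% for Lhx2, 61.6% for Dmrta2 and 50% for Nr2f2. These matches are descriptions of the letters and not binding sites.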

How the data were processed

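Gene counts from LCM RNA-seq of the SVZ and the cortex were used, with 1 library per area. Per the study's methods, adapters were removed with cutadapt 4.1 and read 1 was mapped to mm10 with STAR 2.7.9a, whose gene counting leaves out multimapping and ambiguous reads. The deposited values are whole-number counts with no normalization, in 1 unstranded and 2 stranded columns. The annotation release is not stated. A merged table in which the authors give CPM, fold changes and log10 ratios was not used. STAR's lines for reads without a gene were left out of totals, and gene-assigned reads were 59.0% and 59.1% of all reads.

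CPM was taken on the sum of gene rows, and the log2 ratio of SVZ to cortex CPM was taken without a pseudocount. Where a gene had 0 reads, 3 reads were put in their place, also inside list medians. Such a ratio is called a bound, though it leaves out the counting error of the other library. No ratio was given with both counts at or under 3. Ratios carry exact Clopper-Pearson 95% intervals from the share of a gene's reads that fell in the SVZ library. Odds ratios carry exact conditional intervals. No p-value was computed. Counts and medians over lists hold genes whose CPM averaged 1 or more. A gene below 1 CPM in a single library can pass only through the other library, which fixes its direction. Exon lengths, positions and overlaps came from GENCODE M21 (GRCm38), which may differ from the annotation counted.

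The members and lists were chosen with earlier results of these data known. Named are the 9 members, the list genes with the highest ratio in each direction, genes that overlap a member, the nearest list gene to each member and further list genes chosen after their values were seen. Some genes that this rule names are not reported here. Alternatives were TMM and upper-quartile factors (edgeR 4.0.16), the size factors of DESeq2 1.42.0, leaving the 10 most counted genes out of the totals, the stranded columns, a pseudocount and other minimums. The procedures were tested on simulated Poisson counts, the model that the intervals assume. The simulation held no PCR copies and no variation between embryos, so it cannot check the intervals for these. Python 3.11.15, scipy 1.17.1, pandas 2.3.3 and R 4.3.3 were used.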

Additional observations from a re-analysis of the deposited data

Results flagged for a closer look

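The stranded columns, which the comparisons above do not use, held reads that the unstranded column gave to no gene. For Nr2f1 these were 134 reads in the SVZ piece and 16 in the cortex piece, above the 3 reads that a count of 0 allows. For its antisense neighbour A830082K12Rik they were again 134 and 16. These are the same reads, since each stranded column gives a read in the overlap to a different gene. They amount to a small part of the 6472 and 937 unstranded reads of Nr2f1.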

How the results depend on the processing

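No paired analysis was possible because SVZ and cortex are single libraries, which also left no replicate to drop. All 72 recomputed ratios of the 9 factors kept the SVZ piece higher, and 57 stayed within the counting interval of the reported value. Many of these could not have changed direction. Each scaling moves all ratios by 1 shift smaller than the lowest ratio, and a pseudocount keeps the sign. TMM, upper-quartile and DESeq2 scaling moved every ratio down (shifts of -0.09, -0.10 and -0.09), which took Emx1 to 0.50, 0.49 and 0.50 and Lhx2 to 1.73, 1.72 and 1.73. In the first and the second stranded column alone, Emx1 was 0.69 and 0.48, Dmrta2 3.27 and 4.90, and the bound of Dmrt3 1.10 and 1.19, since each column holds part of the reads. A pseudocount of 1 CPM, which draws low values together, gave Emx2 4.16, Dmrta2 3.01 and Dmrt3 0.68. Lhx9, whose reported 1.31 rests on 29 and 5 reads, was 0.36 and 2.86 in the stranded columns and 0.35 with the pseudocount, all inside its wide counting interval. A minimum of 10 CPM leaves out Dmrta2, so that 1 factor stayed at or above 4-fold and the median was 1.20, and the mean of the 7 ratios was 2.05. With no minimum the paralogue list changed side, from a median of -0.08 to 1.44, since genes with 0 cortex reads enter at their bounds. The other list medians kept their sign.

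The depth limits the cortex values most. Emx2, Dmrta2, Lhx9 and Dmrt3 rest on 39, 21, 5 and 0 cortex reads. The levels by longest transcript and their order were chosen after seeing the data.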

Other observations

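Other cell classes differed between the pieces as well. All 5 intermediate progenitor markers were higher in the SVZ piece, with a median log2 ratio of 4.55. So were all 5 proliferation markers, with a median of 5.95, against 54.9% of all tested genes. Eomes, an intermediate progenitor marker, passed the minimum through its SVZ level alone, so its place in these values is no support for them. Markers of Cajal-Retzius cells, the early neurons of the outermost layer, summed to 4.102 CPM in the SVZ piece against 32.0 CPM in the cortex piece, mostly Reln, and Lhx1 and Lhx5 had 0 reads. The 6 markers of the meninges were low in both, at 4.80 and 6.44 CPM. Of the thalamus and prethalamus list, Tcf7l2, Slc17a6 and Cntnap2 were higher in the SVZ piece, and Gbx2 and Lhx1 had 0 reads in both.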
